A study of Mus musculus with 26 samples.

Results

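The enzymes described here supply NADPH or belong to the pentose phosphate pathway: G6pdx and Pgd of the oxidative branch, Tkt and Taldo1 of the non-oxidative branch, the cytosolic malic enzyme Me1 and the cytosolic isocitrate dehydrogenase Idh1. Of the 6 listed genes, 5 were measured, by 12 probe sets that the array annotation gives to 1 of these symbols alone, out of 18193 genes and 45037 probe sets in all. G6pdx was not analysed here. Pgd has 4 probe sets, Tkt 3, Me1 and Idh1 2 each and Taldo1 1.

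NADPH is the electron donor of fatty acid and cholesterol synthesis and of glutathione and thioredoxin reduction. Cells draw it from the oxidative pentose phosphate branch, which turns glucose 6-phosphate into ribulose 5-phosphate, and from cytosolic malic enzyme and isocitrate dehydrogenase, which work on carbon that has left the mitochondrion as citrate or malate. The non-oxidative branch returns pentoses to glycolysis or makes ribose for nucleotides. The secretory epithelium of the lactating mammary gland makes large amounts of milk fat, and the fat cells around it can make lipid too.

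RNA of the inguinal mammary gland of mice was measured on Affymetrix arrays, 1 array per sample. Glands of the parental strains, CBA/CaH and QSi5, were taken at pregnancy day 12 (5 arrays each) and at lactation day 9 (3 arrays each). Mice of an Advanced Intercross Line (AIL) of both strains, at generation 14, were studied at lactation day 9 alone, and their sample codes are AC (5 arrays) and AQ (5 arrays), which the labels do not explain. The labels name no treatment and no engineered allele, and pregnant AIL mice were not analysed here. The samples are separate in the labels, but nothing says how the mice were chosen, so p-values measure the spread between these samples. Values are log2 expression values (RMA), so a difference of 1 is 2-fold, and levels of different probe sets cannot be set against each other.

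The labelled tissue had its markers: Csn2, a milk casein, had group means of 14.7 to 14.9, and Krt18, a luminal keratin, of 9.65 to 12.6. In all, 7 of 26 arrays stood apart, lying more than 1 log2 unit above their group's median in the markers of skeletal muscle, brown adipocytes or B and plasma cells, or in the difference between the 3' and 5' control probe sets of Gapdh, a measure of RNA quality and labelling. The brown adipocyte markers were highest on pregnancy CBA/CaH array 5 (a median of 2.80 on the log2 scale, relative to the 26-array mean), and the Gapdh difference was highest on pregnancy QSi5 array 4 (6.50). Fewer cells of a type and less RNA per cell cannot be told apart in whole gland RNA.

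The first comparison asked how these enzymes differed between mid-pregnancy and lactation in each strain. Idh1 was 5.27-fold and 6.97-fold lower in lactation, in CBA/CaH and QSi5, and Me1 rose in both strains, so the cytosolic enzymes that make NADPH from isocitrate and from malate moved in opposite directions. Tkt and Taldo1 fell in both strains, by 1.48-fold to 2.15-fold, though in QSi5 the fall of Tkt was called in its brightest probe set alone. Pgd fell in CBA/CaH, and in QSi5 its brightest probe set missed the threshold. A gene stands for its brightest probe set (the highest mean over the arrays), and "called" means an adjusted p under 0.05 (limma, Benjamini-Hochberg over the whole array). In CBA/CaH 1 member gene rose and 4 fell, where 53.0% of all probe sets were called. In QSi5 1 rose and 3 fell, where 59.1% of all probe sets were called. With so much of the array called, these counts alone do not set the enzymes apart from other genes.

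**Figure D1:**
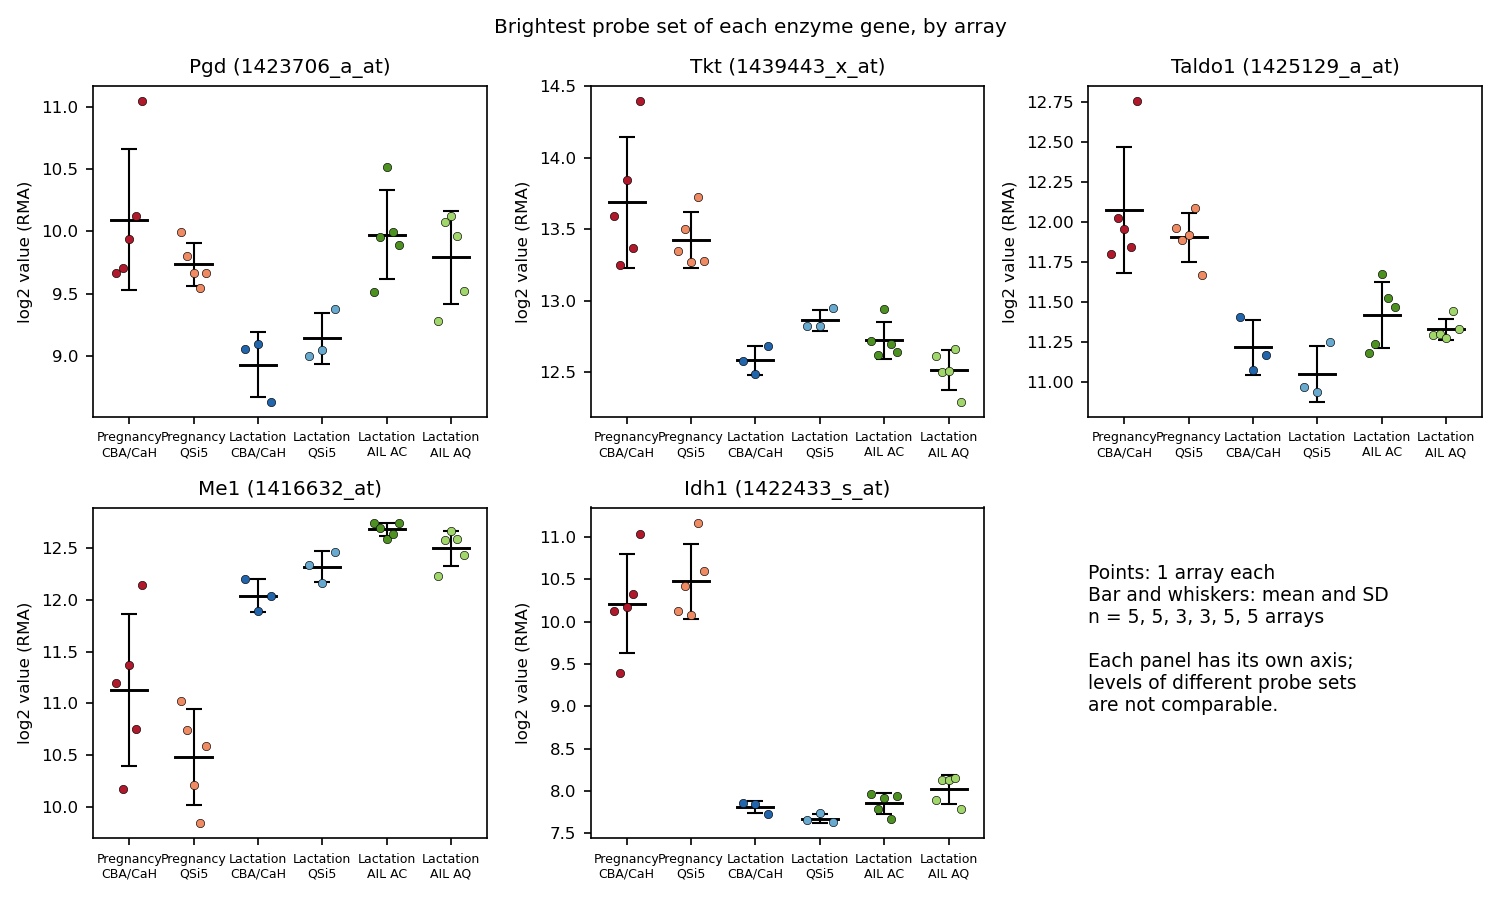
Log2 value (RMA) of the brightest probe set of each measured gene on each array, by group; bars and whiskers are the mean and SD of 5, 5, 3, 3, 5 and 5 arrays, and each panel has its own axis. Idh1 lies between 9.40 and 11.17 on the pregnancy arrays and between 7.63 and 8.16 on all lactation arrays, while Me1 runs the other way.

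Idh1 makes NADPH in the cytosol and peroxisome by turning isocitrate into 2-oxoglutarate. Its probe set 1422433_s_at read 10.12, 9.40, 10.17, 10.33 and 11.04 on the pregnancy CBA/CaH arrays and 7.87, 7.85 and 7.73 on the lactation arrays. In QSi5 it read 10.12, 10.42, 10.07, 11.17 and 10.60 in pregnancy and 7.65, 7.74 and 7.63 in lactation. All 10 pregnancy arrays lay above all 6 parental lactation arrays, without overlap. The difference was -2.40 in CBA/CaH (SE 0.29, limma adjusted p = 9.91e-06), which is 5.27-fold lower in lactation. In QSi5 it was -2.80 (SE 0.29, limma adjusted p = 1.53e-06), or 6.97-fold lower. The dimmer probe set 1419821_s_at differed by -2.31 and -2.87 (SE 0.43 for both, limma adjusted p = 0.000416 and 4.94e-05). The suffix s_at marks sets whose probes can match related transcripts, and both Idh1 sets carry it.

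Me1 turns malate into pyruvate and NADPH in the cytosol. Its probe set 1416632_at read 11.20, 10.17, 11.37, 10.75 and 12.14 in pregnant and 12.20, 11.89 and 12.03 in lactating CBA/CaH mice. In QSi5 it read 11.02, 10.74, 10.21, 9.84 and 10.59 in pregnancy and 12.34, 12.17 and 12.46 in lactation. The QSi5 groups did not overlap, and the CBA/CaH groups did, through pregnancy array 5 alone. The rise was 0.92 in CBA/CaH (SE 0.34, limma adjusted p = 0.0322), or 1.89-fold, and 1.84 in QSi5 (SE 0.34, limma adjusted p = 0.000303), or 3.58-fold. The probe set 1430307_a_at rose by 1.28 (SE 0.52, limma adjusted p = 0.0470) and by 2.44 (SE 0.52, limma adjusted p = 0.000925).

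The rise of Me1 in CBA/CaH rests on few arrays. Leaving out pregnancy array 2 or 4, or any 1 of the 3 lactation arrays, ended the call for 1416632_at (differences 0.68 to 0.99, limma adjusted p = 0.0563 to 0.0973). The call of 1430307_a_at was lost in 7 of 8 such fits, all but that without pregnancy array 5 (limma adjusted p up to 0.123), and with equal array medians (1.11, limma adjusted p = 0.100). Without pregnancy array 5, the one with the highest brown adipocyte markers, 1416632_at was at 1.17 (limma adjusted p = 0.00372). The stage difference was larger in QSi5 by 0.92 (SE 0.48), but that interaction was not called (limma adjusted p = 0.965).

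Pgd, the second NADPH-producing dehydrogenase of the oxidative branch, decarboxylates 6-phosphogluconate. Its probe set 1423706_a_at read 9.66, 9.71, 9.94, 10.12 and 11.05 in pregnant CBA/CaH mice, against 9.06, 9.10 and 8.63 in lactation. In QSi5 it read 9.99, 9.80, 9.67, 9.54 and 9.67 against 9.00, 9.04 and 9.38. The stages did not overlap in either strain. The difference was -1.17 in CBA/CaH (SE 0.25, limma adjusted p = 0.00129) and -0.60 in QSi5 (SE 0.25, limma adjusted p = 0.0503, not called). Without pregnancy QSi5 array 4 or lactation QSi5 array 3 the QSi5 difference was called (limma adjusted p = 0.0417 and 0.0498). The other 3 Pgd sets, whose suffix x_at marks probes that can match unrelated transcripts, were called in both strains, with differences of -2.21 to -2.01 and -1.62 to -1.38. These 3 sets correlated with each other at r of 0.99 or more over the 26 arrays, but with 1423706_a_at at 0.63 to 0.64, so the sets give Pgd falls of different size.

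Tkt moves a 2-carbon unit between sugar phosphates. Its brightest probe set, 1439443_x_at, read 13.59, 13.25, 13.84, 13.37 and 14.40 in pregnant and 12.58, 12.49 and 12.69 in lactating CBA/CaH mice. The suffix of this set, too, marks probes that can match unrelated transcripts. In QSi5 it read 13.35, 13.50, 13.27, 13.73 and 13.28 against 12.82, 12.82 and 12.95. The stages did not overlap in CBA/CaH or in QSi5. The difference was -1.11 (SE 0.20, limma adjusted p = 0.000423) in CBA/CaH and -0.56 (SE 0.20, limma adjusted p = 0.0271) in QSi5. The call in QSi5 was lost without lactation array 1 or 2 (limma adjusted p = 0.0753 and 0.0748). The sets 1451015_at and 1436605_at fell in CBA/CaH (-1.04 and -1.33, SE 0.27 and 0.42, limma adjusted p = 0.00511 and 0.0161). In QSi5 they gave -0.40 and -0.83 (limma adjusted p = 0.215 and 0.103) and were not called. The call of Tkt in QSi5 thus rests on the x_at set alone.

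Taldo1, which moves a 3-carbon unit between sugar phosphates, has 1 probe set, 1425129_a_at. It read 11.80, 12.02, 11.96, 11.84 and 12.76 in pregnant and 11.41, 11.07 and 11.17 in lactating CBA/CaH mice. In QSi5 the values were 11.96, 11.89, 11.92, 12.09 and 11.67 against 10.97, 10.93 and 11.25. The stages did not overlap in either strain. The difference was -0.86 in both strains (SE 0.19, limma adjusted p = 0.00151 and 0.00124), or 1.81-fold lower in lactation.

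How far the smaller falls exceed that of other bright genes depends on the scaling. In the deposited values the bright end of the arrays was lower in lactation: the 90th percentile of an array averaged 8.70 and 8.79 in pregnant CBA/CaH and QSi5 mice and 8.05 and 8.02 in lactation. The median difference of the 2802 probe sets with a mean of at least 9 was -0.48 in CBA/CaH and -0.52 in QSi5, while that of all probe sets was 0.17 and 0.19. Of the called probe sets, 61.0% and 60.9% rose as deposited, and 58.9% and 58.0% after quantile normalization. With equal array medians 45.0% and 43.2% rose. After cyclic loess it was 50.6% in CBA/CaH, with an equally even split in QSi5.

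After quantile normalization across all arrays the median of the bright probe sets was 0.04 and 0.08, and Idh1 and Me1 kept their directions and calls in both strains. Idh1 was then at -1.75 and -2.10 (limma adjusted p = 0.000408 and 6.58e-05) and Me1 at 1.28 and 2.25 (limma adjusted p = 0.00882 and 9.91e-05). Tkt kept its call in CBA/CaH (-0.89, limma adjusted p = 0.0133) and lost it in QSi5 (-0.26, limma adjusted p = 0.440). Taldo1 lost its call in both strains (-0.49 and -0.43, limma adjusted p = 0.0718 and 0.103). Pgd 1423706_a_at was at -0.51 in CBA/CaH (limma adjusted p = 0.105) and at 0.15 in QSi5, with the sign turned. The 3 other Pgd sets kept their calls in CBA/CaH (-1.56 to -1.35) and lost them in QSi5 (-0.87 to -0.61). With equal array medians the call of Me1 in CBA/CaH was lost (0.74, limma adjusted p = 0.0862). Of the brightest sets, Idh1 in both strains, Me1 in QSi5 and Tkt in CBA/CaH kept their call under each scaling tried (limma adjusted p of at most 0.0383, for Tkt after cyclic loess). So did the other Idh1 set in both strains, the other Me1 set in QSi5, and Tkt 1436605_at and the 3 other Pgd sets in CBA/CaH.

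**Figure D2:**
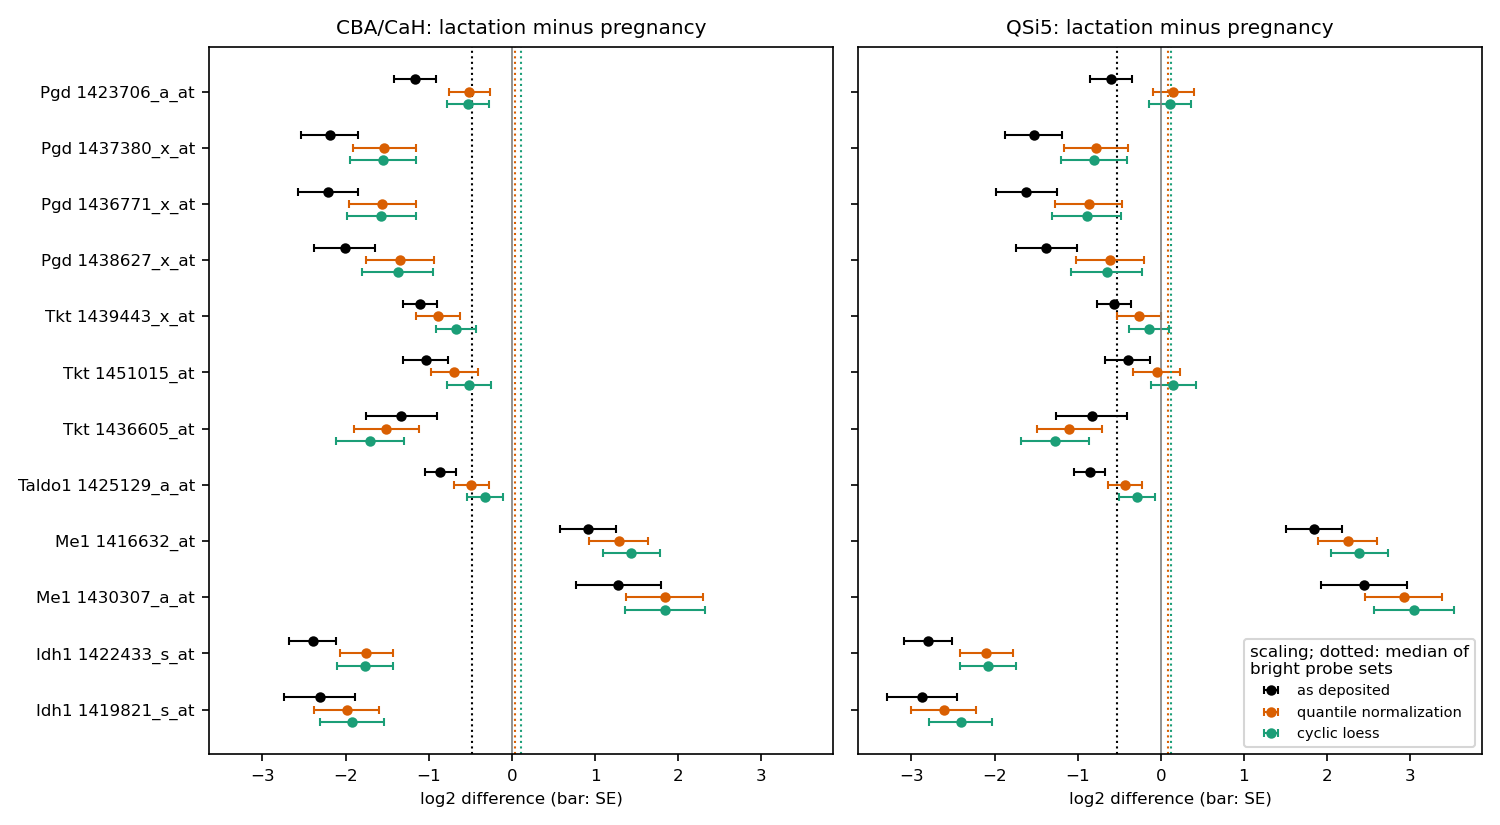
Lactation minus pregnancy (log2 difference, bars are the SE) for the 12 probe sets in CBA/CaH (left) and QSi5 (right), from the deposited values, after quantile normalization and after cyclic loess; dotted lines are the median of the bright probe sets under each scaling. The Idh1 and Me1 points stay on their side of 0 under all 3, while Pgd 1423706_a_at in QSi5 moves from -0.60 to 0.15 and 0.11.

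Markers of white adipocytes moved with the same comparison. Of 10 measured, CBA/CaH had 7 lower and 2 higher in lactation and QSi5 had 4 lower and 2 higher, with medians of -1.65 and -1.20 against 0.17 and 0.19 for all probe sets. The median of these markers, relative to the mean of all arrays, ran from -1.28 to 1.64 on the pregnancy CBA/CaH arrays, from -0.05 to 0.75 in QSi5, and from -1.20 to -0.55 on the parental lactation arrays. The lowest marker level of all belonged to a pregnancy sample, CBA/CaH array 2. On that array Idh1 read 9.40, above every lactation array, Tkt 13.25 and Taldo1 12.02, also above every lactation array, and Me1 10.17, below every lactation array. Pgd read 9.71 there, above the 6 parental lactation arrays and below 7 of the 10 AIL arrays. Within its own group, array 2 was also the lowest in Idh1, Tkt and Me1, but not in Taldo1 or Pgd. Luminal epithelial markers fell too (9 of 10 in each strain), and 5 and 6 of 8 secretory alveolar markers rose. Fibroblast markers fell (5 of 6 in each strain, medians -1.96 and -2.03), as did those of endothelium (4 of 5 in each strain, medians -1.29 and -1.25) and myoepithelium (5 and 7 of 8). The part of cell composition in the enzyme differences was not tested.

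**Figure D3:**
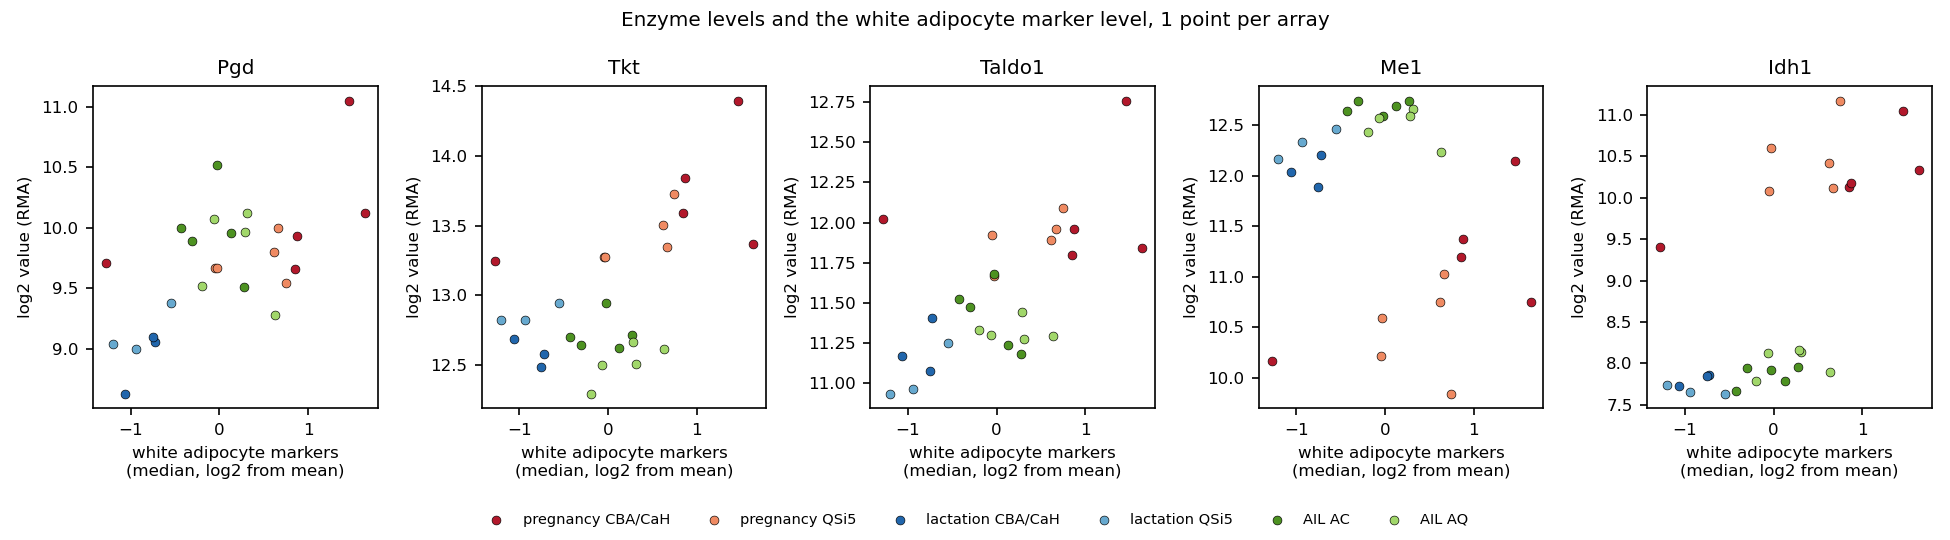
Log2 value of each enzyme's brightest probe set (vertical) against the median of the white adipocyte markers relative to the mean of all arrays (horizontal, log2 units), 1 point per array. Pregnancy CBA/CaH array 2, at -1.28, has the lowest marker level. Its Idh1, Tkt and Taldo1 values lie above all lactation arrays, its Me1 value below them, and its Pgd value (9.71) among those of the AIL arrays. Within its own group its Idh1, Tkt and Me1 values are the lowest.

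The other genes around these enzymes were counted from lists. Over all probe sets, 32.3% rose and 20.7% fell in the CBA/CaH mice, against 35.9% and 23.1% in the QSi5 mice. Of 4 measured genes of the oxidative branch (Pgd among them), CBA/CaH had 3 that fell, and QSi5 1 that fell and 1 that rose. Pgls, the lactonase between both dehydrogenases, fell (-1.49 and -1.51, SE 0.23 for both, limma adjusted p = 8.43e-05 and 5.32e-05). H6pd, the dehydrogenase of the endoplasmic reticulum, was at -1.96 in CBA/CaH (SE 0.46, limma adjusted p = 0.00244) and at -1.08 in QSi5 (limma adjusted p = 0.0534, not called). G6pd2 rose in QSi5 by 0.63 (limma adjusted p = 0.00104), but its group means of 2.86 to 3.56 lie near the lowest value of the table, 2.34.

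The non-oxidative branch and ribose use had 13 measured genes, of which 8 fell and 3 rose in the CBA/CaH mice and 7 fell and 2 rose in the QSi5 mice. Rpia, the ribose 5-phosphate isomerase, fell (-1.03 and -1.46, SE 0.20 for both), as did Prps1, which activates ribose for nucleotide synthesis (-1.12 and -1.60, SE 0.20 for both). Dera, which splits deoxyribose phosphate, fell too (-1.29 and -1.11, SE 0.19 for both). The sugar kinase Shpk was at 0.11 and 0.28 and was not called. The median of this list was -0.77 and -0.56.

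Of the 5 malic enzymes and isocitrate dehydrogenases, 1 rose and 2 fell in each strain. The mitochondrial isocitrate dehydrogenase Idh2, which also makes NADPH, fell like Idh1 (-1.98 and -1.97, SE 0.17 for both, limma adjusted p = 4.52e-07 and 3.27e-07). The mitochondrial malic enzymes Me2 (-0.05 and -0.32) and Me3 (0.36 and 0.46) were not called in either strain. Among these 5 genes the rise was thus called for Me1 alone.

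Around Me1 lies the shuttle that carries citrate and pyruvate across the mitochondrial membrane. Of its 10 measured genes, CBA/CaH had 2 that rose and 3 that fell, and QSi5 had 3 of each. Mpc1, a subunit of the pyruvate carrier, rose by 1.56 and 2.69 (SE 0.51 for both, limma adjusted p = 0.0183 and 0.000400). Slc25a1, the citrate carrier, rose in QSi5 by 2.17 (SE 0.39, limma adjusted p = 0.000230) and was at 0.73 in CBA/CaH (limma adjusted p = 0.120, not called). Mdh2, the mitochondrial malate dehydrogenase, fell (-1.17 and -0.95, SE 0.21 for both).

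Of 11 folate enzymes, NAD kinases and mitochondrial NADPH sources, CBA/CaH had 1 that rose and 4 that fell, and QSi5 3 that rose and 5 that fell. Aldh1l2, a mitochondrial folate dehydrogenase that makes NADPH, rose by 2.20 and 2.63 (SE 0.22 for both), while Shmt2, a serine hydroxymethyltransferase, fell (-1.39 and -1.14, SE 0.16 for both), as did the NADPH-making transhydrogenase Nnt (-1.17 and -1.25, SE 0.22 for both). Among 9 genes listed for lipid synthesis, most of them NADPH users, CBA/CaH had 3 that rose, QSi5 had 5, and none fell in either. These counts include the cyclase Lss, which does not use NADPH and rose in both strains. The list also holds the reductase Cyb5r3, which uses NADH and was not called. The sterol reductase Tm7sf2 rose by 1.34 and 1.66 (SE 0.32 for both), whereas the fatty acid synthase Fasn was at -0.20 and 0.69 and was not called. Of 9 genes of redox defence, 1 rose in each strain and 2 and 4 fell. Cat, the catalase, fell in both strains. Its pregnancy and lactation means were 10.66 and 8.41 in CBA/CaH and 10.38 and 8.14 in QSi5. In each strain that fall stayed called in all 8 fits without 1 array and in all 12 other settings. Glrx, a glutaredoxin, rose by 2.29 and 1.99 (SE 0.25 for both), while Gsr, the glutathione reductase, was at -0.44 in CBA/CaH (not called) and fell in QSi5 (-1.28). The thioredoxin reductase Txnrd1 was at -0.55 in CBA/CaH (not called) and fell in QSi5 (-0.67), with the sign turned in both strains after quantile normalization (0.10 and 0.095). Its call in QSi5 was lost without pregnancy QSi5 array 1, 2, 3 or 5 or lactation QSi5 array 1 or 2 (limma adjusted p = 0.0512 to 0.149).

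Upstream of the pathway, the 15 genes of glucose 6-phosphate supply had 3 that rose and 6 that fell in the CBA/CaH mice, against 4 and 7 in the QSi5 mice. Hk1, a hexokinase, fell (-2.19 and -2.08, SE 0.16 for both). Slc2a1, a glucose transporter, was at 0.31 and 0.48 and was not called. Of 16 regulators, 6 fell in each strain and 1 rose, in QSi5. Srebf1, a factor for lipid synthesis genes, fell (-1.15 and -1.27, SE 0.34 for both), as did Stat5b, a factor in prolactin signalling (-1.76 and -1.68, SE 0.27 for both). Of the falls named here, those of Srebf1 and Nnt in both strains, Rpia in CBA/CaH and Dera in QSi5 were no longer called after quantile normalization, and those of Mdh2 and Gsr in QSi5 after cyclic loess; that of Gsr was also lost without lactation QSi5 array 2 (limma adjusted p = 0.0506). The rise of Slc25a1 in CBA/CaH was called under both of these scalings (1.27 and 1.30).

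The promoters are shown because Tkt, Taldo1, Pgd and Idh1 fell in the deposited CBA/CaH values while Me1 rose. Each sequence runs from 250 bases before the most upstream start that the RefSeq table gives for the gene to 20 after it, in GRCm38.p6, 5′ to 3′ on the gene's strand. Capitals mark the CCAAT box (CCAAT) and the antioxidant response core (TGACNNNGC), each on either strand, and none of the marked stretches overlap.
Pgd: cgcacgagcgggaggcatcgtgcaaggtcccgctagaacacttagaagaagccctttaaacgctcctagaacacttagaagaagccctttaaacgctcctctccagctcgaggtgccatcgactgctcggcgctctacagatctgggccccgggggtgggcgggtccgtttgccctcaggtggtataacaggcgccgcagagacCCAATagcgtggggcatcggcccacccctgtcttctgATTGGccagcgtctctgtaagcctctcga
Tkt: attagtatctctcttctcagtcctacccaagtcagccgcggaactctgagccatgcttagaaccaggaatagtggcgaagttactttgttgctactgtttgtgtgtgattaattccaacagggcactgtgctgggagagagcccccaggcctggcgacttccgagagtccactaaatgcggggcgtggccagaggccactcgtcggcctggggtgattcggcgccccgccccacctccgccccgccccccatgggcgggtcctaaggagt
Taldo1: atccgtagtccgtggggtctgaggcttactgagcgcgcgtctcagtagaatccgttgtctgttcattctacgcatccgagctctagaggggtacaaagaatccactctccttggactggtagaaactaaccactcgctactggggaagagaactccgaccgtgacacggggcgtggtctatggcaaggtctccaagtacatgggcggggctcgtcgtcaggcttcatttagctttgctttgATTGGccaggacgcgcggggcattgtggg
Me1: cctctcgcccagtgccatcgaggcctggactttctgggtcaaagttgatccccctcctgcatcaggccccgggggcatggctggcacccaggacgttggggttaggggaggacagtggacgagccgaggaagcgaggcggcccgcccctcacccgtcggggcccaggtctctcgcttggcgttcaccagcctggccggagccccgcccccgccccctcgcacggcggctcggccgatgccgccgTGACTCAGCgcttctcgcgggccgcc
Idh1: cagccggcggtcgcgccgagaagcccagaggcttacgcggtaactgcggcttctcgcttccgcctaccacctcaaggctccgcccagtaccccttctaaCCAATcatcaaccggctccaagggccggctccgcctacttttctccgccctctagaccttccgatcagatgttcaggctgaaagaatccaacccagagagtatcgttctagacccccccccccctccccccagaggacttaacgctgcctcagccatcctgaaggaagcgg

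The windows lie at chr4:149166686-149166955 (Pgd, minus strand), chr14:30548881-30549150 (Tkt, plus), chr7:141391910-141392179 (Taldo1, plus), chr9:86695895-86696164 (Me1, minus) and chr1:65186460-65186729 (Idh1, minus). In the 250 bases before the start, CCAAT was found in 3 of 5 members (Pgd, Taldo1 and Idh1), against 33.8% of 32851 windows in the table, and the GC box GGGCGG in all 5, against 32.7%. The members are counted at their most upstream start, whereas the windows of the table include the later starts of a gene, so these shares are not a like background. In that window no member held the antioxidant response core (10.2% of all windows), the sterol response type TCACNCCAC (1.05%), the E-box CACGTG (6.02%) or the STAT type TTCNNNGAA (7.02%). The search was then widened to the table's full 300 bases, after the first result was seen. In the wider window at these starts Me1 alone held the antioxidant response core, tgactcagc, which starts 6 bases before its transcript start, against 12.4% of all windows. The other counts over the members did not change. The table also gives a second start for Pgd, Me1 and Idh1, and the matches there differ: that of Pgd holds the antioxidant response core (tgacattgc, from base 4 after the start) and no CCAAT or GC box, that of Me1 holds CCAAT alone, and that of Idh1 the GC box alone. A match is a description of letters and says nothing about binding.

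Within a stage, the strains did not differ in any member gene by the adjusted test. In pregnancy 1.09% of all probe sets were called for strain (limma) and none of the 5 genes. At an unadjusted p under 0.05 there were 3795 of the 45037 probe sets and 1 of the 5 genes. That gene was Me1, lower in QSi5 by 0.64 (SE 0.29, limma adjusted p = 0.562). In lactation 0.289% of probe sets were called and 0 of the 5 genes. At an unadjusted p under 0.05 there were 2344 probe sets and 0 genes. This fit pools the spread of the pregnancy and lactation arrays. For Tkt, as an example, the lactation SDs were 0.10 and 0.07 and the SE of the strain difference was 0.23. For the interaction of stage and strain 0.104% of probe sets were called and again 0 of 5 genes. Its unadjusted p was under 0.05 for 2422 probe sets and 0 genes. The interaction was 0.57 for Pgd (SE 0.35), 0.54 for Tkt (SE 0.29), 0.00 for Taldo1 (SE 0.27) and -0.40 for Idh1 (SE 0.40).

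The intercross mice were compared with each parental strain in lactation. Both comparisons use the same AIL arrays. Called members were all higher in the AIL mice: 2 of 5 genes (Pgd and Me1) against CBA/CaH, where 32.0% of all probe sets were called, and 3 of 5 (Pgd, Taldo1 and Idh1) against QSi5, where 36.0% were called. In these comparisons 45.8% and 43.7% of the called probe sets were higher in the AIL mice as deposited. The shares were 43.6% and 43.9% after quantile normalization, 50.3% for both after cyclic loess, and 63.7% and 64.7% with equal array medians. Over the 12 member probe sets, 6 and 5 were called higher and none lower. Over all probe sets, 14.7% and 15.7% were called higher in the AIL mice and 17.4% and 20.3% lower.

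Me1 1416632_at read 12.74, 12.69, 12.59, 12.64 and 12.74 in AC and 12.23, 12.58, 12.66, 12.59 and 12.43 in AQ mice. All 10 lay above the 3 CBA/CaH lactation arrays and overlapped with QSi5. The difference was 0.55 from CBA/CaH (SE 0.10, limma adjusted p = 0.000731) and 0.27 from QSi5 (SE 0.10, limma adjusted p = 0.0530, not called, but called without QSi5 array 3 or AQ array 1, at 0.0403 and 0.0260). Its other set, 1430307_a_at, read 12.80, 13.05, 13.17, 12.82 and 12.82 in AC and 12.62, 12.70, 12.88, 12.81 and 12.59 in AQ mice, against 11.32, 11.32 and 10.82 in CBA/CaH and 11.76, 11.43 and 11.75 in QSi5. No AIL array overlapped with a parental one. The difference was 1.67 from CBA/CaH (SE 0.12, limma adjusted p = 3.48e-08) and 1.18 from QSi5 (SE 0.12, limma adjusted p = 1.88e-06). The Me1 sets thus give this difference at unlike sizes.

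Pgd 1423706_a_at read 9.52, 9.96, 10.52, 9.996 and 9.89 in AC and 9.28, 10.08, 10.13, 9.96 and 9.52 in AQ mice. These lay above all CBA/CaH lactation arrays, while AQ array 1 fell within the QSi5 range. The difference was 0.96 from CBA/CaH (SE 0.19, limma adjusted p = 0.00103) and 0.75 from QSi5 (SE 0.19, limma adjusted p = 0.00581). The x_at sets gave 0.50 to 0.53 and 0.20 to 0.32, with 1 call, for 1438627_x_at against CBA/CaH (limma adjusted p = 0.0328), which leaving out any 1 CBA/CaH array ended (limma adjusted p = 0.0722 to 0.105).

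Tkt 1439443_x_at was at 0.04 and -0.24 (limma adjusted p = 0.805 and 0.0630) and was not called, while 1451015_at was higher than in CBA/CaH by 0.53 (SE 0.13, limma adjusted p = 0.00388). Taldo1 read 11.18 to 11.68 in AC and 11.28 to 11.44 in AQ mice. It was higher than in QSi5 by 0.32 (SE 0.11, limma adjusted p = 0.0340), with overlapping groups. Idh1 1422433_s_at read 7.67 to 7.96 in AC and 7.79 to 8.16 in AQ mice, and was higher than in QSi5 by 0.26 (SE 0.10, limma adjusted p = 0.0484), again with overlap. Its dimmer set 1419821_s_at differed by 0.80 and 1.32 (SE 0.21 for both, limma adjusted p = 0.00734 and 0.000126). The call of Taldo1 was lost without QSi5 array 1 or 2 or AQ array 4 (limma adjusted p = 0.137, 0.160 and 0.0503). That of Idh1 1422433_s_at was lost on leaving out any 1 array except AC array 4, AQ array 1 and AQ array 5 (0.24 to 0.30, with the highest limma adjusted p at 0.132). Both calls were also lost after quantile normalization (0.14 and -0.042), as was that of Pgd against QSi5 (0.40, limma adjusted p = 0.110), and the median of the bright probe sets was 0.24 and 0.25 as deposited.

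**Figure D4:**
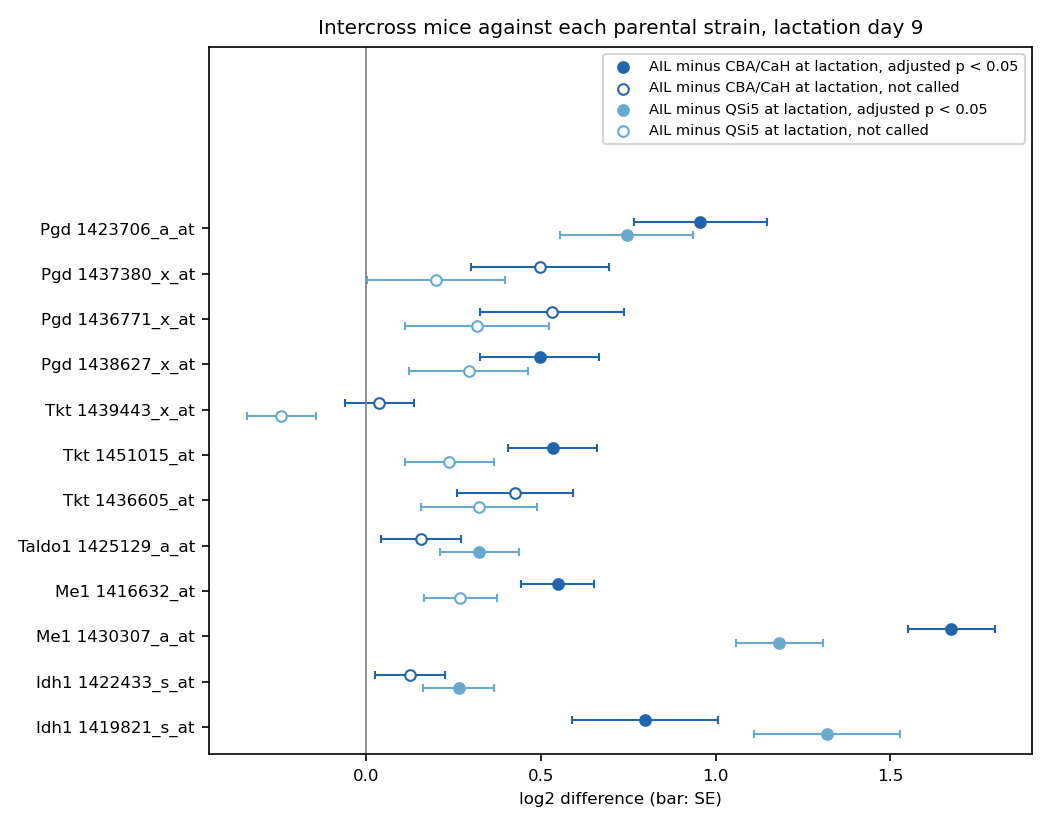
AIL minus CBA/CaH (dark) and AIL minus QSi5 (light) at lactation day 9, log2 difference with its SE, for the 12 probe sets; filled points were called at an adjusted p under 0.05. Me1 1430307_a_at has the largest difference from CBA/CaH, 1.67, and Tkt 1439443_x_at lies at 0.04 and -0.24.

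RNA quality moved with this comparison. The Gapdh 3' minus 5' difference was 0.54 to 0.80 on the 10 AIL arrays and 1.12 to 2.02 on the 6 parental lactation arrays, without overlap. With it as a covariate, 557 and 837 probe sets stayed called in place of 14425 and 16220, and 0 of the 5 brightest member sets. Pgd was then at 0.61 and 0.41 (limma adjusted p = 0.539 and 0.655) and Me1 1416632_at at 0.80 from CBA/CaH (limma adjusted p = 0.0962). Me1 1430307_a_at kept its call against CBA/CaH (1.23, limma adjusted p = 0.0275) and lost it against QSi5 (0.75, limma adjusted p = 0.132). Idh1 1419821_s_at turned its sign against CBA/CaH, to -0.29. Whether the AIL arrays differ by line or by how the RNA was prepared cannot be told apart where the covariate and the groups do not overlap. White adipocyte markers were higher in the AIL mice too (7 of 10 against each strain, medians 0.74 and 0.65), as were all 6 fibroblast markers; their part was not tested.

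Between AQ and AC mice no probe set was called (0.00% of all, limma, with 1289 of 45037 at an unadjusted p under 0.05). None of the 5 genes was called, and 1 had an unadjusted p under 0.05: Tkt, at -0.21 in AQ minus AC (SE 0.10, limma adjusted p = 1.00).

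For Idh1 the order was pregnancy QSi5 (10.48, SD 0.44, n = 5), pregnancy CBA/CaH (10.21, SD 0.59, n = 5), AIL AQ (8.02, SD 0.17, n = 5), AIL AC (7.86, SD 0.12, n = 5), lactation CBA/CaH (7.81, SD 0.07, n = 3) and lactation QSi5 (7.68, SD 0.05, n = 3). The step between pregnancy and lactation lay beyond the spread. By 1422433_s_at, the lactation groups were called apart in the AIL to QSi5 comparison alone, a call lost in 10 of 13 fits without 1 array. The dimmer set 1419821_s_at was called in the AIL comparisons with CBA/CaH and with QSi5 (0.80 and 1.32, limma adjusted p = 0.00734 and 0.000126). Leaving out 1 array ended its CBA/CaH call in 1 of 13 fits. Of 12 settings other than leaving out single arrays, 10 kept the CBA/CaH call and 11 the QSi5 call. The lowest differences were -0.29 from CBA/CaH and 0.25 from QSi5, with limma adjusted p up to 0.771 and 0.773. For Me1 the order was AIL AC (12.68, SD 0.07, n = 5), AIL AQ (12.50, SD 0.17, n = 5), lactation QSi5 (12.32, SD 0.15, n = 3), lactation CBA/CaH (12.04, SD 0.16, n = 3), pregnancy CBA/CaH (11.13, SD 0.73, n = 5) and pregnancy QSi5 (10.48, SD 0.46, n = 5). By 1416632_at, the call between neighbours was made at the step from lactation to pregnancy. In CBA/CaH that call was lost in 5 of 8 fits without 1 array. The other set, 1430307_a_at, was also called higher in the AIL mice than in lactating QSi5 mice (1.18, limma adjusted p = 1.88e-06).

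Over the 26 arrays the members did not all run together. Me1 correlated with Idh1 at r = -0.81, with Tkt at -0.63, with Taldo1 at -0.59 and with Pgd at 0.02. Idh1, Tkt and Taldo1 correlated with each other at 0.86 to 0.89. Around the group means all 10 pairs were positive, from 0.40 to 0.75. Pregnancy CBA/CaH array 5 was the highest of its group in the brightest set of every measured member. The pattern did not hold on every array. In the brightest sets, pregnancy QSi5 array 4 was the lowest of its group in Me1 (9.84) and Pgd (9.54). It was the highest in Idh1 (11.17), Tkt (13.73) and Taldo1 (12.09). Other sets went the other way there: Idh1 1419821_s_at (7.19) and Tkt 1451015_at (11.27) were lowest, and the Pgd x_at sets highest (10.61 to 11.07). Me1 1430307_a_at (7.15) was lowest and Tkt 1436605_at (5.86) highest, like the brightest sets. The Gapdh 3' minus 5' difference was highest on this array (6.50). The arrays share their dissection and labelling, and these values are descriptions without a test.

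Among 9728 genes with a mean of at least 6, Slc25a1 was most like Me1, over all arrays (r = 0.97) and around the group means (r = 0.87). Its group means ran from 9.54 in pregnant QSi5 to 12.1 in AC mice. Next over all arrays were Cidea and Fah (0.95 for both), and around the group means Elovl6 (0.85) and Proca1 (0.82). Idh1 was most like Myh10 (0.99), Acbd4 and Rpa2 (0.97 for both) over all arrays, and like Enc1 (0.89), Aifm2 (0.88) and Aldh1a7 (0.85) around the means. Tkt was most like 1700037H04Rik by both measures (0.95 and 0.94), followed by Phlda3 (0.95) and Cox17 (0.93), and by Nat8l (0.89) and Gpd1 (0.87) around the means. Taldo1 was most like Acadvl, Mfn2 and Idh3g (0.94 for all 3), and like Idh3g (0.86), Hspa9 (0.83) and Hibadh (0.82) around the means. Pgd had the lowest values, with Idh3a (0.87), Pkm and Clybl (0.85 for both), and Scd2 (0.84), Apmap (0.82) and Tpi1 (0.80) around the means.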

How the data were processed

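For each probe set the authors deposited a log2 value made with RMA (robust multi-array average), per the submitters' processing notes; the version and whether all arrays were processed together are not given in the sources used here. They were used as deposited for 26 arrays and ran from 2.34 to 15.1. The 64 control probe sets were left out, which left 45037 tested: 34945 with 1 gene symbol in the array annotation, 932 with several and 9160 with none. The lmFit and eBayes functions of limma 3.58.1 (R 4.3.3) gave 1 fit of the 16 parental arrays and 1 of the 16 lactation arrays, each with 1 mean per group. Benjamini-Hochberg adjustment ran over the 45037 probe sets, and the script was tested on simulated data. The AIL mean is that of the AC and AQ group means. The number of arrays limits the precision.

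The members and lists were chosen with earlier results of these data known. All measured members are named whatever their result, each by its brightest probe set with the others beside it. From 9 gene lists, called members of lists with 6 or fewer measured genes, and otherwise up to 4 called members with the largest differences and up to 2 not called, could be named; a part of these is given. The 3 most similar genes per member and measure are given by Pearson correlation. Alternatives were a filter on the mean (at least 5), a trended robust variance, 3 other scalings (quantile normalization, cyclic loess and equal array medians), other sets of arrays, array weights, the mean of a gene's probe sets, a replicate block, a Gapdh covariate, a factor for AIL array sets, and leaving out arrays that stood apart or each array in turn. Promoter sequences are those of RefSeq in GRCm38.p6, and all 5 measured members were matched by symbol. Figures were drawn with matplotlib. G6pdx is not reported here.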

Additional observations from a re-analysis of the deposited data

Results flagged for a closer look

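In 9 of 48 sets of 5 arrays (12 probe sets in 4 groups), 1 array lay farther from the others than Dixon's test allows; chance alone gives about 1 in 20 sets, and the sets are not independent. Pregnancy CBA/CaH array 5 was the high one for Taldo1 (12.76, others 11.80 to 12.02), Tkt 1436605_at (7.30, others 5.12 to 5.22), Pgd 1436771_x_at (11.81, others 10.03 to 10.48) and Pgd 1437380_x_at (11.75, others 10.09 to 10.51). This array also had the highest brown adipocyte markers. Pregnancy QSi5 array 4 was low for Idh1 1419821_s_at (7.19, others 8.68 to 8.95) and Me1 1430307_a_at (7.15, others 9.63 to 9.86), and high for Pgd 1436771_x_at (11.05, others 9.77 to 10.05) and Pgd 1438627_x_at (10.61, others 9.13 to 9.56). Its Gapdh 3' minus 5' difference was 6.50. The array AIL AC3 was high for Tkt 1451015_at (12.40, others 11.68 to 11.86).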

How the results depend on the processing

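Under quantile normalization 3 member genes were called for stage in CBA/CaH, 2 in QSi5 and 0 for AIL minus QSi5, and the same 3 counts (3, 2 and 0) came from cyclic loess. AIL minus QSi5 gave 1 member gene with all 26 arrays, with array weights, with the replicate block and without the arrays that stand apart, and 0 with the Gapdh covariate. AIL minus CBA/CaH gave 1 with all 26 arrays, 4 with the mean of all probe sets and 0 with the Gapdh covariate. The replicate block moved no other member count by over 1.5 times; same-numbered arrays correlated at -0.43 to 0.32, so the numbers were not taken to pair the samples. Leaving out single arrays gave 1 to 4 member genes for AIL minus QSi5.

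Over all probe sets, a mean of at least 5 left 14300 and 15714 called for stage, in CBA/CaH and QSi5, because fewer were tested. Strain at pregnancy gave 492 in the reported fit, 306 with only the compared groups, 852 with all 26 arrays, 1579 with array weights, 928 with the Gapdh covariate and 289 without the arrays that stand apart. Strain at lactation gave 130, and 218 with quantile normalization, 227 with array weights and 216 with the Gapdh covariate. The interaction gave 47, and 80 with all 26 arrays, 152 with array weights and 84 with the Gapdh covariate. That covariate left 557 for AIL minus CBA/CaH and 837 for AIL minus QSi5. Without 1 array, counts ran from 25 to 84 (interaction), 372 to 894 (strain at pregnancy, the highest without QSi5 array 4), 83 to 95 (strain at lactation), 9481 to 14328 (AIL minus CBA/CaH, the lowest without lactation CBA/CaH array 3) and 0 to 3 (AQ minus AC). The cause was not tested.

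Signs turned as follows. Quantile normalization and cyclic loess gave Pgd 1423706_a_at for stage in QSi5 0.15 and 0.11, Txnrd1 for stage in CBA/CaH 0.10 and 0.092 and in QSi5 0.095 and 0.062. For AIL minus CBA/CaH they gave Idh1 1422433_s_at -0.17 and -0.18, Taldo1 -0.064 and -0.011 and Tkt 1439443_x_at -0.026 and -0.022. For AIL minus QSi5 they gave Idh1 1422433_s_at -0.042 and -0.067, Pgd 1436771_x_at -0.031 and -0.000115, Pgd 1437380_x_at -0.15 and -0.12, and Pgd 1438627_x_at -0.051 and -0.037. Cyclic loess also gave Tkt 1451015_at for stage in QSi5 0.15. The mean of all probe sets gave Txnrd1 0.18 and 0.24 for stage and Tkt 0.11 for AIL minus QSi5. The Gapdh covariate gave Idh1 1419821_s_at -0.29 for AIL minus CBA/CaH. The interaction of Taldo1 turned to -0.044 with equal array medians, -0.074 with array weights and -0.15 without the arrays that stand apart. Without the arrays that stand apart, strain at pregnancy was 0.068 for Pgd, 0.024 for Tkt, 0.039 for Taldo1 and 0.18 for Me1. Leaving out single arrays, the interaction of Taldo1 ran from -0.17 to 0.099, its strain difference at pregnancy from -0.24 to 0.00068 (without CBA/CaH array 5), and Tkt 1439443_x_at in AIL minus CBA/CaH from -0.011 (without lactation CBA/CaH array 2) to 0.088.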
